A study of Bos taurus with 2 samples.

Results

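Natural killer (NK) cells of the lactating bovine mammary gland were picked from single-cell RNA counts by a gate on raw UMIs, the unique molecules counted per gene and cell barcode. A barcode was taken when it held 300 or more genes, at least 2 UMIs of the receptor genes NCR1 and KLRD1 together, at least 1 UMI of the granule genes NKG7, GNLY and PRF1 together, and at most 1 UMI of the T cell genes CD3E, CD3D and CD3G together. The gate held 104 of the 14907 adult barcodes with 300 or more genes, which is 0.698% (exact Clopper-Pearson interval of 95%, 0.570 to 0.845), out of 15897 adult barcodes and 29669 barcodes in the whole series. The study asked about the cell types of the Holstein mammary gland at 2 ages, using 1 library of a lactating cow and 1 library of a newborn, and states 24472 high-quality cells (29669 barcodes are in the files, and the filter between these numbers is unknown here). Both glands went through EDTA, an enzyme mix of hyaluronidase, collagenases and DNase, and a cell strainer, and the 10x Genomics V3 kit for 3' ends made the libraries. The number of animals behind each library is not given in the labels, no treatment or genetic change is named, and fat tissue was removed before digestion. With 1 library per age there is no test over samples, so every interval below covers counting error only and no p-value is given.

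NK cells are lymphocytes that kill stressed, infected or transformed cells without the rearranged antigen receptors of T cells. They weigh signals from activating receptors, which act through small adaptor proteins with immune tyrosine motifs, against inhibitory receptors that read MHC class I. On activation they release granules with perforin, which opens membranes, granzymes, which are proteases, and granulysin, which attacks microbes, and they secrete chemokines and interferon gamma. In the mammary gland, as in other tissues, they lie beside killer CD8 T cells that share this granule machinery.

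The comparison classes came from gates of the same kind in the adult library. They were 1747 killer CD8 T cells (at least 2 CD3 UMIs, CD8A or CD8B, no CD4, and a UMI of NKG7, GNLY or PRF1), 750 CD4 T cells (at least 2 CD3 UMIs, CD4, no CD8A, CD8B, NCR1 or KLRD1) and 259 type 2 lymphoid cells (at least 2 UMIs of PTGDR2, CHGA and IL13 together, at most 1 CD3 UMI). The NK cells had a median of 3722.5 UMIs (1093 to 28163) and 1161.5 genes, and the median depth was 3532 UMIs in killer CD8 T, 3099 in CD4 T and 3839 in type 2 lymphoid cells. The 436718 UMIs of the NK cells were summed, and levels are given as CPM, the UMIs of a gene scaled to the same total in every class. The libraries shared 57 barcode sequences, 0 of them among the NK cells, and 2 NK barcodes also met the endothelial gate.

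The values that chose the cells are a description only. NCR1, which encodes the activating receptor NKp46, was counted in 88 of the 104 cells, and KLRD1, which encodes CD94, in 45. In 59 cells NCR1 was found without KLRD1, in 16 KLRD1 without NCR1, and in 29 both. The receptor sum was exactly at the limit of 2 in 60 cells, and 135 barcodes missed it with a sum of 1. The cells at the limit held 1113 CPM of FCER1G and 15.4 CPM of IL7R, and the 135 barcodes just outside held 867 CPM and 292 CPM. The CD3 sum was 0 in 86 cells and 1 in 18, and 18 further barcodes missed the gate with a CD3 sum of 2. NKG2A stood at 397 CPM in the cells with 0 CD3 UMIs, 348 CPM in those with 1 and 12.1 CPM in the barcodes just outside with 2. CD8A went the other way over these 3 sets, at 5.48, 55.6 and 85.0 CPM. These CD8A values rest on 2, 4 and 7 UMIs, and the NKG2A level outside the gate on 1 UMI. The cells with 1 CD3 UMI were also lower than those with 0 in KLRB1 (69.6 against 184 CPM) and SH2D1A (139 against 329 CPM). They were higher in IL7R (69.6 against 13.7 CPM) and CD8B (69.6 against 5.48 CPM). Their KLRB1, IL7R and CD8B rest on 5 UMIs each, and FCER1G was close, at 1238 against 1269 CPM.

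T cell genes that the NK gate did not use were lower in the NK cells than in both T cell classes. The 14 such genes in the files summed to 73 UMIs (167 CPM), against 612 CPM in killer CD8 T and 868 CPM in CD4 T cells. CD4, CD8A and CD8B are among the 14 and also chose those T cell classes, so part of this difference was set in advance. The list stood at 123 CPM in type 2 lymphoid cells, 158 CPM in B cells and 9.64 CPM in endothelium. CD6, CD28, THEMIS, CD40LG and CD163L1, 5 of the 14, were at 0 UMIs, and the T cell glycoprotein gene CD5 had 1 UMI. The members that carried the list were CD27, a co-stimulatory receptor also found on NK cells, with 32 UMIs in 24 cells, and TRAT1, which stabilises the T cell receptor complex, with 16 UMIs in 15 cells. The T cell receptor constant genes TRAC, TRBC1, TRBC2, TRDC and TRGC1 were not analysed here, since no identifier is paired with those symbols. Beside the gate, the NK label rests on T cell genes lower than in the 2 T cell classes and on KLRB1 and NKG2A. T cells with neither CD4 nor CD8 were not compared here, so KLRB1 is not shown to separate NK cells from them. Gamma delta T cells could not be told apart by their receptor genes.

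A few barcodes stood apart in depth and touch the results below. The deepest, with 28163 UMIs and 6.45% of all NK UMIs, held 2 UMIs of NCR1 beside 18 of VWF, 10 of PECAM1 and 8 of CDH5, which are endothelial genes. The next, with 14821 UMIs, held 194 UMIs of KRT19 and 166 of WFDC2, which are epithelial genes. Many ratios are therefore also given within a depth limit of 8169 UMIs (3 times the library median), which removed 3 NK cells and left 101. The limit also removed 214 of the 1747 killer CD8 T cells, so a ratio within it can move through either class.

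KLRB1 and NKG2A, 2 receptor genes of NK cells that the gate did not use, were far above killer CD8 T cells. KLRB1, a lectin-like receptor of NK cells, had 72 UMIs in 38 NK cells and stood at 165 CPM (129 to 208) against 8.69 CPM in killer CD8 T cells, 1.61 in CD4 T and 0.931 in type 2 lymphoid cells. The ratio to killer CD8 T cells was 19.0 (13.6 to 26.4), and 16.3 within the depth limit. NKG2A, the inhibitory partner of CD94 in reading MHC class I, had 170 UMIs in 65 cells and stood at 389 CPM (333 to 452) against 26.5 CPM, a ratio of 14.7 (12.0 to 17.9) and 11.4 within the limit. No type 2 lymphoid cell held an NKG2A UMI. Against a floor of 3 UMIs it was 139-fold higher in NK cells, and the lower limit of the interval was 112-fold. KLRF1, which encodes the activating receptor NKp80, was rarer, with 15 UMIs in 12 NK cells and 1 UMI in all 1747 killer CD8 T cells, a ratio of 324 (49.9 to 13641).

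Of the 17 activating and co-activating receptor genes in the files, 10 reached 50 CPM and 20 UMIs in 1 of the classes and passed a guard against free RNA (at least 10% of the level in the highest other class). At 4-fold or more 1 of them, KLRB1, was higher in NK than in killer CD8 T cells, where 1.35% of all 2229 genes that passed were, and 0 were lower, against 2.06% of all genes. At 2-fold or more 2 were higher, where 5.43% of all genes were, and 0 were lower, against 5.65%. The second was NCR3, the gene of NKp30, at 305 CPM (255 to 361) against 128 CPM, a ratio of 2.37 (1.97 to 2.84) that was 1.84 within the depth limit. The median log2 ratio of the list was 0.63, against 0.09 over all genes that passed.

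Other receptors lay closer to killer CD8 T cells. KLRK1, the gene of NKG2D, stood at 163 against 95.8 CPM (ratio 1.70, 1.31 to 2.16), and CD244, a receptor of the SLAM family, at 96.2 against 67.1 CPM. FCGR3A, the Fc receptor CD16 that lets NK cells read antibody, was found in 22 cells at 64.1 against 35.3 CPM, and stood at 267 CPM in macrophages. CD2, an adhesion receptor shared with T cells, stood at 77.9 against 114 CPM, and CRTAM, an adhesion receptor of activated killer cells, at 57.2 against 93.6 CPM. Among inhibitory receptors, CD96 stood at 126 against 222 CPM and PVRIG at 199 against 194 CPM. LAG3, KLRG1, TIGIT and CTLA4 were at 0 UMIs in NK cells. KLRC1 had 2 UMIs in 1 NK cell and 32.3 CPM in killer CD8 T cells. NKG2A and KLRC1 belong to 1 family of near copies, as do the KIR and KLRA genes, and how reads matching more than 1 copy were counted is unknown, so the split between them is uncertain.

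The adaptors below these receptors were unequal. FCER1G, the Fc receptor gamma chain that carries the signal of NKp46, was counted in 96 NK cells with a median of 5 and at most 17 UMIs. It stood at 1264 CPM (1161 to 1374) against 352 CPM in killer CD8 T, 126 in CD4 T and 16.8 in type 2 lymphoid cells, a ratio to killer CD8 T cells of 3.59 (3.28 to 3.93) and 2.98 within the depth limit. HCST, the adaptor of NKG2D, stood at 362 against 208 CPM (ratio 1.74, 1.47 to 2.05). TYROBP, the adaptor of many activating NK receptors, was nearly missing, with 4 UMIs in 2 NK cells (9.16 CPM, 2.50 to 23.5) against 1054 CPM in macrophages of the same library. CD247, the zeta chain of the T cell receptor and of NKp46, stood at 108 against 167 CPM, a ratio of 0.643 (0.470 to 0.859).

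Among kinases and cytosolic adaptors, SH2D1A and TXK were higher and ZAP70 was lower. SH2D1A, the adaptor of SLAM family receptors, stood at 298 CPM (249 to 353) against 70.6 CPM in killer CD8 T cells, a ratio of 4.22 (3.47 to 5.10). Within the depth limit it stood at 325 against 82.2 CPM, a ratio of 3.95 and so just under 4-fold. TXK, a Tec family kinase, stood at 149 CPM (115 to 190) against 29.7 CPM, a ratio of 5.01 (3.77 to 6.59) and 4.01 within the depth limit. SYK, a kinase that binds phosphorylated adaptor motifs, had 17 UMIs in 15 cells, too few to be counted, at 38.9 against 3.60 CPM (ratio 10.8, 5.66 to 19.9). ZAP70, the related kinase that T cells use, went the other way at 27.5 against 92.0 CPM, a ratio of 0.299 (0.154 to 0.524). Of the 20 genes of this list 12 passed, of which 2 were higher and 0 lower at 4-fold (1.35% and 2.06% of all genes), and 3 higher and 1 lower at 2-fold (5.43% and 5.65% of all genes). LCK and FYN, kinases shared with T cells, stood at 165 and 126 CPM against 158 and 119 CPM. VAV3, an exchange factor below NK receptors, had a ratio of 1.95, and LAT, the scaffold of T cell receptor signals, of 0.512.

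**Figure D1:**
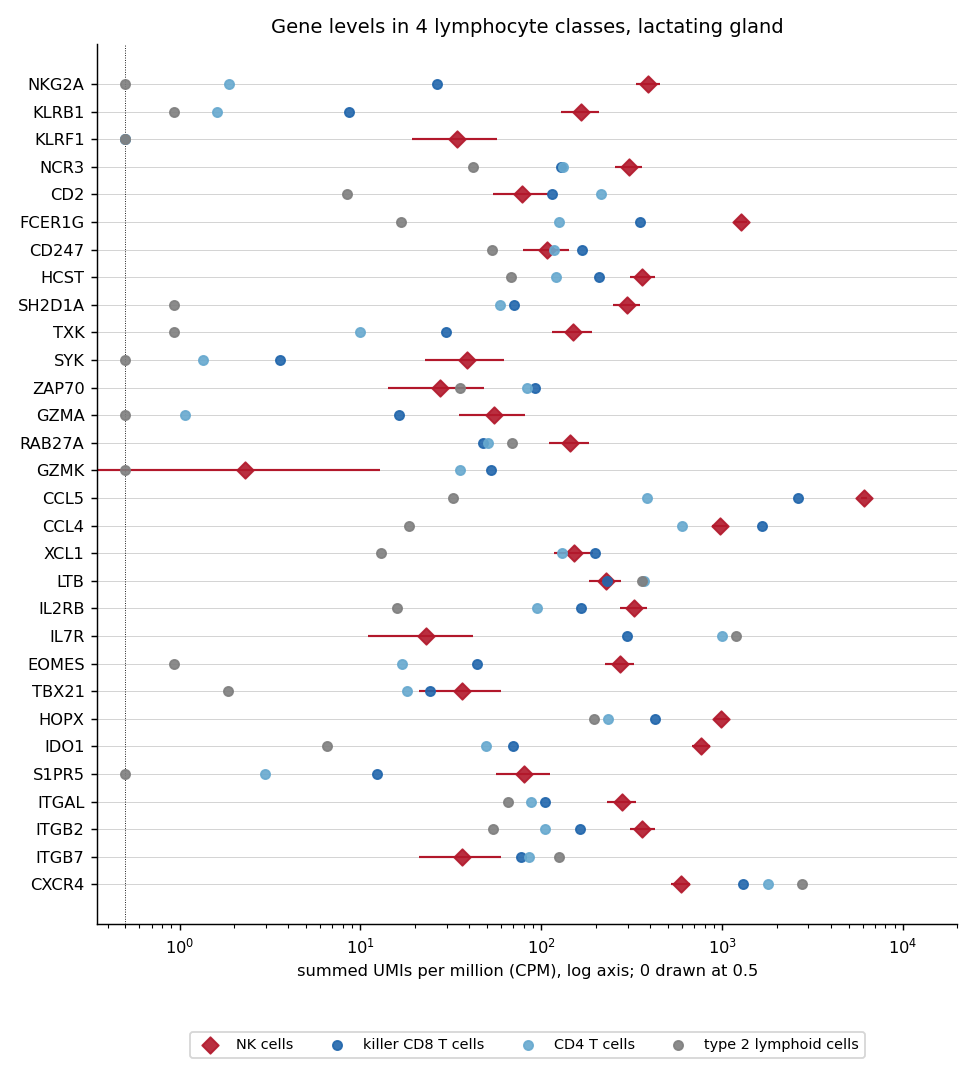
Level (CPM of summed UMIs, log axis) of 30 genes in NK cells (diamonds, with 95% Poisson intervals), killer CD8 T, CD4 T and type 2 lymphoid cells of the lactating gland, with a level of 0 drawn at the dotted line. The diamonds lie right of the other classes for NKG2A, KLRB1, FCER1G, SH2D1A, TXK, EOMES and IDO1, and left of them for IL7R (22.9 CPM against 298 to 1193 CPM).

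Granule genes were not higher as a group. Of 19 such genes in the files 13 entries passed, with 0 higher and 3 lower at 4-fold (1.35% and 2.06% of all genes), and 3 higher and 4 lower at 2-fold (5.43% and 5.65%). Entries went by identifier, so the 2 of GZMB, both more than 4-fold lower, were counted apart although they are 1 gene symbol. The gate genes themselves, given as description, stood at 870 CPM for NKG7, 378 for PRF1 and 2317 for GNLY in NK cells, and at 497, 182 and 1116 CPM in killer CD8 T cells. CTSW, a cathepsin of killer cells, was counted in 100 NK cells at 1832 against 1331 CPM, but the ratio of 1.38 was 1.05 within the depth limit. RAB27A, which docks granules at the membrane, stood at 144 against 47.6 CPM (ratio 3.03, 2.29 to 3.95). STX11, a membrane fusion protein of granule release, had a ratio of 2.06 and FASLG, the ligand of the death receptor Fas, of 1.55, while CST7, a cathepsin inhibitor, had 0.789.

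The granzymes, which share a fold but cut different substrates, took opposite directions. GZMA was counted in 16 NK cells with at most 5 UMIs and stood at 55.0 CPM (35.2 to 81.8) against 16.4 CPM. The ratio was 3.34 (2.08 to 5.16), and 3.28 within the depth limit. GZMK had 1 UMI against 495 UMIs in killer CD8 T cells (52.5 CPM), which is 22.9-fold lower (4.09 to 907). GZMM stood at 22.9 against 80.1 CPM (ratio 0.286, 0.136 to 0.528). GZMB is listed under 2 identifiers, with 4 UMIs in 1 NK cell for 1 of them and 0 for the other, against 55.3 and 54.5 CPM in killer CD8 T cells. The counting of reads that fit both GZMB copies is uncertain for the reason given for the NKG2 genes.

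Among secreted products, CCL5, a chemokine that draws T cells and monocytes, was counted in 101 of 104 NK cells with a median of 22 UMIs per cell (0 to 79). It stood at 6089 CPM (5859 to 6325) against 2611 CPM in killer CD8 T, 383 in CD4 T and 32.6 in type 2 lymphoid cells, a ratio to killer CD8 T cells of 2.33 (2.24 to 2.43) that was 1.90 within the depth limit. CCL4 and CCL3, related chemokines, were below killer CD8 T cells, at 971 against 1656 CPM and 188 against 329 CPM, ratios of 0.586 (0.531 to 0.646) and 0.570 (0.452 to 0.710). XCL1, which draws cross-presenting dendritic cells, was at 151 against 198 CPM, in 13 NK cells only. IFNG, the gene of interferon gamma, had 12 UMIs in 8 NK cells (27.5 CPM) against 53.3 CPM in killer CD8 T and 163 CPM in CD4 T cells. TNF stood at 66.4 against 65.1 CPM. Of the 19 genes of this list 9 passed, and CCL5 alone was higher at 2-fold (5.43% of all genes), with 0 lower (5.65%).

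Among cytokine receptors, IL7R was far below every compared class. Of 20 such genes in the files 6 passed against killer CD8 T cells, with 0 higher and 2 lower at 4-fold (1.35% and 2.06% of all genes), the same counts at 2-fold (5.43% and 5.65%) and a median log2 ratio of -0.18 against 0.09 for all genes. IL7R, the receptor for interleukin 7 that sustains T and innate lymphoid cells, had 10 UMIs in 9 NK cells and stood at 22.9 CPM against 298 in killer CD8 T, 995 in CD4 T and 1193 in type 2 lymphoid cells. This is 13.0-fold (7.07 to 27.2), 43.5-fold (23.6 to 90.7) and 52.1-fold (28.2 to 109) lower. KIT, the receptor for stem cell factor, had 7 UMIs in 6 NK cells against 131 CPM in killer CD8 T cells, 8.19-fold lower. IL2RB, which transmits interleukin 2 and interleukin 15, stood at 325 CPM (274 to 383) against 167 CPM (ratio 1.95, 1.63 to 2.32), and its partner IL2RG stood at 360 against 253 CPM. Receptors for interleukins 12 and 18 were below the limit of 20 UMIs, with 17 UMIs of IL12RB1, 12 of IL12RB2 and 14 of IL18RAP.

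Of 28 lymphocyte transcription factor genes in the files, 12 passed against killer CD8 T cells, with 1 higher and 0 lower at 4-fold (1.35% and 2.06% of all genes) and 2 higher and 0 lower at 2-fold (5.43% and 5.65%). The first was EOMES, a T-box factor of NK and memory CD8 T cells, in 52 NK cells at 272 CPM (226 to 326) against 43.9 in killer CD8 T, 16.9 in CD4 T and 0.931 in type 2 lymphoid cells. Its ratio to killer CD8 T cells was 6.21 (5.02 to 7.63), and 4.82 within the depth limit. HOPX, a homeodomain protein of effector lymphocytes, was the other, at 991 against 426 CPM (ratio 2.33, 2.10 to 2.57). These counts were made without the depth limit. Within it, HOPX in cells with 3 or more GNLY UMIs stood at 1207 CPM in NK and 1185 CPM in killer CD8 T cells. In cells with 0 GNLY UMIs it stood at 1025 against 347 CPM. TBX21, the related T-box factor, had 16 UMIs in 15 cells and stood at 36.6 against 24.4 CPM. RORA and SATB1 had ratios of 1.92 each, while TCF7, ID2 and PRDM1 had 0.963, 0.745 and 1.02. GATA3, the factor of type 2 lymphocytes, stood at 45.8 CPM in NK cells and 573 CPM in type 2 lymphoid cells.

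Of 16 circulation and homing genes 6 passed, with 4 higher and 1 lower at 2-fold (5.43% and 5.65% of all genes), and a median log2 ratio of 1.12 against 0.09 for all genes. S1PR5, a receptor that guides NK cells out of tissues toward blood, was found in 24 NK cells at 80.1 CPM (55.8 to 111) against 12.3 CPM. The ratio was 6.52 (4.33 to 9.58), and 5.43 within the depth limit. The integrin genes ITGAL and ITGB2, the chains of LFA-1, stood at 279 against 105 CPM and 362 against 165 CPM, without the depth limit. Within it, ITGB2 in cells with 3 or more GNLY UMIs stood at 475 CPM in NK and 437 CPM in killer CD8 T cells. In cells with 0 GNLY UMIs ITGB2 stood at 359 against 140 CPM. S1PR1 was the other higher gene, but 38 of its 57 UMIs lay in 1 cell, and its ratio of 2.12 was 1.57 within the depth limit. SELPLG, a selectin ligand, had a ratio of 1.56. CXCR4, which holds lymphocytes near its stromal ligand, was lower at 591 against 1303 CPM (ratio 0.453, 0.399 to 0.513).

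Of 14 residency genes 5 passed, with 0 higher and 2 lower at 2-fold (5.43% and 5.65% of all genes) and a median of -0.70. The lower genes were ITGB7, an integrin chain of mucosal lymphocytes, at 36.6 against 76.7 CPM, and GPR171 at 91.6 against 185 CPM. RGS1, which damps chemokine signals, stood at 753 against 1230 CPM, and CD69, which retains lymphocytes in tissue, at 103 against 165 CPM. CXCR6, a chemokine receptor of resident lymphocytes, was found in 40 NK cells at 112 against 109 CPM. ZNF683, a residency factor, was at 0 UMIs, and ITGA1 had 3.

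Shares of cells with a UMI were also compared at equal depth. With each cell thinned to 1000 UMIs, FCER1G was found in 68.3% (58.4 to 77.1) of NK cells, 28.7% (26.6 to 30.9) of killer CD8 T cells and 1.55% of endothelial cells, which should lack it. Without thinning these shares were 92.3%, 49.7% and 5.07%, at median depths of 3722.5, 3532 and 3057 UMIs. IDO1 was found in 46.2% of thinned NK cells, 6.30% of killer CD8 T cells and 1.86% of endothelial cells. SH2D1A stood at 25.0%, 7.22% and 0.155%, and CXCR4 at 38.5%, 68.7% and 6.65%. The order of the shares went against that of the CPM for KLRK1, at 11.5% of NK and 12.2% of killer CD8 T cells, and for TBX21, at 2.88% and 3.64%, so no order is read for these. The shares depend on the depth chosen, and that of FCER1G in NK cells was 46.2% thinned to 500 and 83.5% thinned to 2000 UMIs. Of 35 such shares in NK cells, 25 at 500 and 24 at 2000 UMIs left the interval of the share at 1000. No NK cell was shallower than 1000 UMIs, and 16 killer CD8 T cells and 210 endothelial cells were left out.

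Over all genes, 30 of 2229 were at least 4-fold higher and 46 at least 4-fold lower in NK than in killer CD8 T cells. Of the 30, 10 took 50% or more of their NK UMIs from 1 cell. Of the 10 largest ratios with a symbol, 6 had all or nearly all NK UMIs in the deepest barcode, which are IL6 (872 of 879 UMIs), SELP (212 of 214), PTGS2, ADAMTS4, CSF3 and TGM2. Without that barcode the log2 ratio of IL6 was -2.10. Within the limit 19 genes were higher, 17 of them among the 30, and 26 were lower, 17 of them among the 46.

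The genes that held in both settings include IDO1, which encodes an enzyme that breaks down tryptophan. It was found in 81 NK cells at 765 CPM, against 70.1 CPM in killer CD8 T cells, a ratio of 10.9 (9.54 to 12.5) and 8.79 within the limit. TAL1, a transcription factor of blood cell formation, stood at 108 CPM in 29 NK cells, a ratio of 9.76 (6.77 to 13.9) and 13.5 within the limit. MCTP2, a membrane protein with calcium-binding domains, DTNBP1, a protein of vesicle traffic, and CD38, an enzyme that uses NAD, had ratios of 8.17, 6.05 and 6.04. FGR, a Src family kinase, had a ratio of 5.44 and CAMK2N1, an inhibitor of a calmodulin kinase, of 5.14. The files do not pair ENSBTAG00000049900 and ENSBTAG00000051183 with symbols, which stood at 179 against 2.76 CPM and 174 against 2.65 CPM.

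The lower genes with a symbol split in the same way. IL7R, GZMK, KIT, JAML, an adhesion receptor of leukocytes, at 6.87 against 65.5 CPM, and CD7, a surface glycoprotein of T and NK cells, at 52.7 against 257 CPM, were lower in both settings. CCL2, a monocyte chemokine, had 1 UMI against 183 CPM, and against 69.7 CPM within the limit. The other large ratios were of MGC151921, CRISP3, SCGB2A2, KRT17, BDA20 and KRT18, and of milk protein genes such as CSN2, whose ratio of 0.220 was 0.942 within the limit. The epithelial gene KRT17 and the secretory gene BDA20 turned from lower to higher within it, at 1.15 and 1.64. The milk protein list stood at 19500 CPM in NK cells, 79643 CPM in killer CD8 T cells and 16167 CPM in endothelium.

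**Figure D2:**
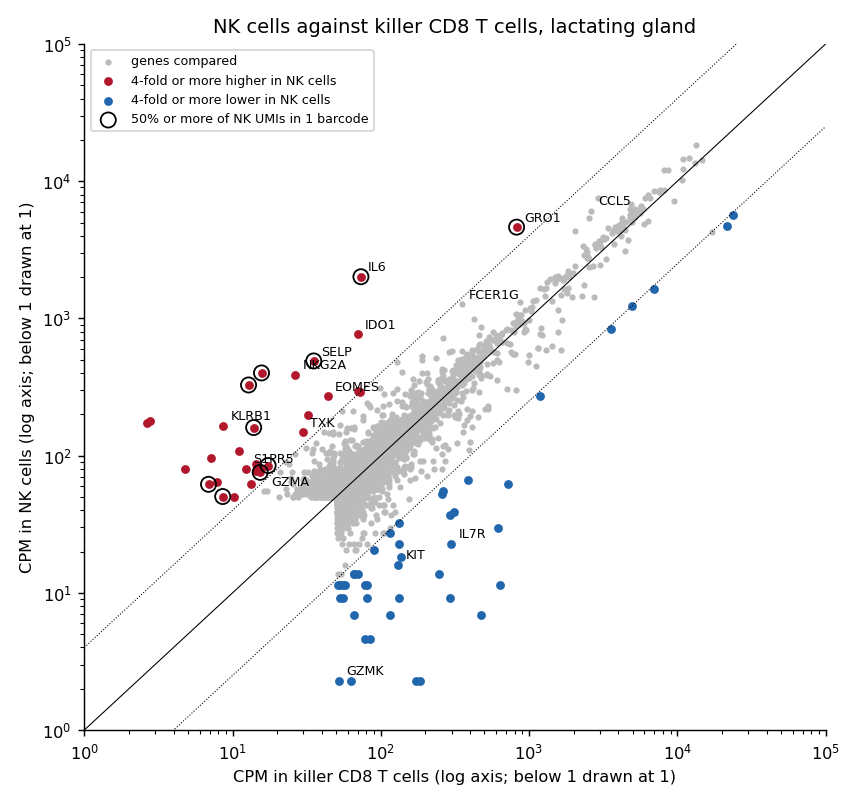
CPM in NK cells (vertical, log axis) against CPM in killer CD8 T cells (horizontal, log axis) for the 2229 genes that passed, with dotted lines at 4-fold, red points for the 30 higher and blue points for the 46 lower genes. Circled red points have 50% or more of their NK UMIs in 1 barcode, and KLRB1, NKG2A, IDO1, EOMES, TXK and S1PR5 are not among them.

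Against CD4 T cells, 52 of 2383 genes (2.18%) were at least 4-fold higher and 62 (2.6%) at least 4-fold lower in NK cells. Beside NKG2A (ratio 207, 98.2 to 522), KLRB1 (102), S1PR5 (27.1), EOMES (16.1), CCL5 (15.9) and IDO1 (15.5), the 10 largest ratios held GZMA at 55.0 against 1.08 CPM, FGR at 77.9 against 3.76 CPM, MCTP2 and CHST2, a sulfotransferase. The lower genes were led by CCL2, CD5 (1 UMI against 157 CPM), IL7R, SLAMF1 and the co-stimulatory gene ICOS (9.16 against 157 CPM, all in 1 NK cell). The inhibitory receptor gene CTLA4 had 0 NK UMIs and was 14.9-fold lower against a floor of 3 UMIs, with a lower limit of 12.0-fold. Of the 12 adaptor and kinase genes that passed, 4 were higher and 0 lower at 4-fold. MGC151921, HSPB8, MT1A and PHLDA1, which stand among the 10 lowest, were 2.05-, 2.36-, 1.92- and 4.37-fold lower within the depth limit, against 16.9-, 14.6-, 13.9- and 11.6-fold without it. CCL2, on 1 NK UMI, was 7.34-fold lower within the limit and 151-fold without it. Its level in CD4 T cells was 19.1 CPM within the limit and 347 CPM without it.

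Against type 2 lymphoid cells the distance was larger, with 143 of 2316 genes (6.17%) at least 4-fold higher and 124 (5.35%) at least 4-fold lower. SH2D1A, EOMES, KLRB1 and TXK each had 1 UMI in the 259 type 2 lymphoid cells, with ratios of 320 (56.4 to 12726), 293 (51.5 to 11657), 177 (30.8 to 7091) and 160 (27.7 to 6411). CCL5 (ratio 187, 134 to 269) and CTSW (123, 75.3 to 216) rest on more UMIs. PTGS2, ADAMTS4 and CSF3, which lie in the deepest barcode alone, were also among the 10 largest. Of 11 activating receptor genes that passed, 8 were higher and 1 lower at 4-fold. The lower one was TNFRSF18, a co-stimulatory receptor, at 41.2 against 382 CPM. Of 9 cytokine receptor genes 1 was higher at 4-fold, IL2RB (ratio 20.5, 12.4 to 36.3), and 5 were lower, led by IL1RL1, the receptor for interleukin 33, with 1 UMI against 252 CPM, and IL17RB with 1 UMI against 101 CPM. Outside the lists MYCL, SPON2, TRIT1, PMP22 and LMNA were among the lowest, the last at 43.5 against 2175 CPM.

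Genes of stress and activation were counted in the same way. Of 13 immediate early genes that passed against killer CD8 T cells 1 was higher and 4 lower at 2-fold (5.43% and 5.65% of all genes), with a median of -0.51. The higher one, IER3, took 178 of its 219 UMIs from the deepest barcode. JUN, a subunit of the AP-1 factor, stood at 593 against 1655 CPM and FOS at 163 against 410 CPM, and within the depth limit these ratios of 0.358 and 0.397 were 0.565 and 0.581. Of 11 heat shock genes that passed 0 were higher and 1 lower at 2-fold (5.43% and 5.65% of all genes), DNAJB1 at 117 against 263 CPM, and HSPA1A stood at 540 against 1002 CPM. IFI6, an interferon-induced gene, was higher at 483 CPM (420 to 553) against 129 CPM (ratio 3.76, 3.23 to 4.35, and 3.21 within the depth limit). It was the only 1 of 3 interferon genes that passed to reach 2-fold, while ISG15 stood at 149 against 223 CPM. The median share of mitochondrial UMIs was 3.12% in NK, 4.26% in killer CD8 T, 4.93% in CD4 T and 7.15% in type 2 lymphoid cells, and the part of this difference in the stress genes was not tested.

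RNA of other cell types was present at levels that differed by list. The milk protein list was the highest, at 19500 CPM (8516 UMIs) in NK cells, with 0 of 8 members at 0 UMIs. The B and plasma cell, myeloid and mast cell lists stood at 50.4, 43.5 and 41.2 CPM in NK cells, against 6891, 6804 and 3343 CPM in those classes. Of these lists 6 of 9, 5 of 12 and 1 of 6 members were at 0 UMIs. The endothelial list stood at 357 CPM, with 32.1% of its UMIs in 1 cell, and the epithelial list at 1779 CPM, with 83.8% in 1 cell and 320 CPM within the depth limit. CSN2, the beta-casein gene, was found in all 104 NK cells and, thinned, in 99.0% of NK, 97.8% of killer CD8 T and 96.0% of endothelial cells.

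Granulysin divided the NK cells. GNLY was at 0 UMIs in 62 cells, at 2 in 1 cell and at 3 or more, up to 82, in 41. This split and the genes below were chosen after the values were seen, GNLY, NKG7, PRF1 and NCR1 are gate genes, and no test was made. Within the depth limit the 41 GNLY cells had a median of 20 GNLY UMIs and 3347 UMIs in all, and the 59 cells at 0 a median of 3811 UMIs, so the cells without GNLY were not the shallower ones. The unnamed gene ENSBTAG00000047449 followed the same division, with at least 10 UMIs in 32 of the 41 cells, up to 327 in a cell, and at most 1 UMI in a cell without GNLY. The files do not pair it with a symbol, and whether it shares reads with GNLY is not known here.

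**Figure D3:**
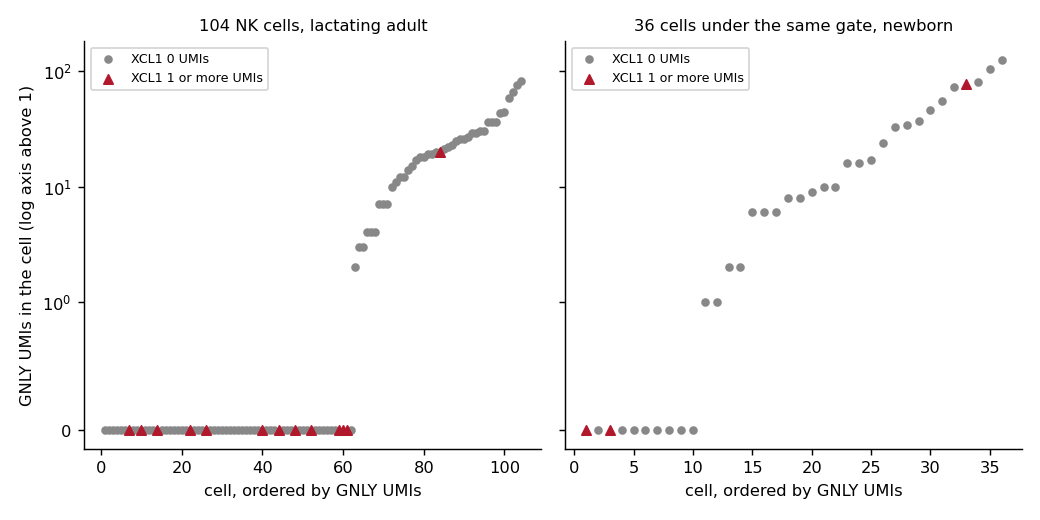
GNLY UMIs in each cell (vertical, log axis above 1) with cells ordered by GNLY, for the 104 adult NK cells (left) and the 36 newborn cells under the same gate (right), where triangles mark cells with an XCL1 UMI. In the adult, 12 of the 62 cells at 0 GNLY UMIs held XCL1, and 1 of the 42 others did.

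The chemokine genes CCL4 and CCL3 were higher in the cells with GNLY, and XCL1, TCF7 and EOMES, among others, in the cells without it. Of 1312 genes with at least 30 UMIs over both sets, 12 were at least 4-fold higher in the cells with GNLY and 4 in those without, GNLY among the 12. The 4 were XCL1, SNX8, TNFRSF9 and FKBP11. TCF7 and GZMA had fewer than 30 UMIs and EOMES was below 4-fold, so they are among neither the 12 nor the 4. CCL4 stood at 2368 CPM in the GNLY cells and 285 CPM in the others (ratio 8.32), found in 34 of 41 and 19 of 59 cells. CCL3 stood at 455 against 56.9 CPM (ratio 8.00, 4.38 to 15.8). GZMA, in 12 and 4 cells, had a ratio of 4.52 (1.72 to 13.9), and PRF1 stood at 620 against 289 CPM (ratio 2.15, 1.55 to 2.99).

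The cells without GNLY were higher in XCL1, with 46 UMIs in 10 cells against 1 UMI, which is 30.5-fold (5.21 to 1232). TCF7, a factor of less differentiated lymphocytes, had 23 UMIs in 14 cells against 2 UMIs (ratio 7.63, 1.89 to 66.8), and EOMES stood at 390 against 119 CPM (ratio 3.28, 1.96 to 5.79), in 37 of 59 and 12 of 41 cells. TNFRSF9, a co-stimulatory receptor of activated lymphocytes, had 41 UMIs in 5 cells against 4 UMIs. SNX8 had 41 UMIs in 19 cells against 2 UMIs (13.6-fold, 3.53 to 116), and FKBP11 had 41 UMIs in 22 cells against 6 UMIs (4.54-fold, 1.92 to 13.1). The ratio of the GNLY cells over the others was 1.04 for KLRB1, 1.02 for NKG2A, 1.02 for IDO1 and 0.965 (0.806 to 1.15) for FCER1G. For NCR1 it was 1.08 (0.806 to 1.45). Every NK cell passed a gate on NCR1 and KLRD1, so that value was partly set in advance. Other receptor and adaptor genes lay further from 1, with 0.682 (0.509 to 0.907) for CXCR4, 0.689 (0.469 to 0.999) for IL2RB, 0.763 (0.508 to 1.13) for SH2D1A, 0.628 (0.268 to 1.36) for S1PR5 and 1.78 (0.970 to 3.30) for CXCR6. CSN2, a measure of free RNA, had a ratio of 0.936. MMRN1 and CCL21, which are endothelial genes, and PTI were also among the 12 higher genes, with 19 of 37, 28 of 38 and 51 of 51 of their UMIs in 1 cell.

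The same division was made in killer CD8 T cells and in the newborn library. Among killer CD8 T cells within the depth limit, 397 had 3 or more GNLY UMIs and 1006 had 0. XCL1 stood at 76.4 and 373 CPM in them, TCF7 at 23.6 and 125 CPM, EOMES at 28.6 and 63.1 CPM, CCL4 at 4183 and 1407 CPM and PRF1 at 531 and 138 CPM, the same directions as in NK cells. Receptor genes also differed in these T cells, with NCR1 at 77.9 against 5.46 CPM, S1PR5 at 56.4 against 1.64 CPM and IDO1 at 245 against 25.9 CPM. The difference between the cell types was not tested, and NCR1 gated the NK cells but not these T cells. In the newborn, 22 cells had 3 or more GNLY UMIs and 10 had 0, with PRF1 at 2.90 (1.90 to 4.57), CCL4 at 2.70 and EOMES at 0.552 (0.292 to 1.04) as ratios of the GNLY cells over the others. TCF7 had 4 UMIs in each newborn set and XCL1 had 2 against 4 (ratio 0.316, 0.0285 to 2.20), too few to give a direction, and GZMA had 9 against 0. IDO1 had a ratio of 3.76 (2.49 to 5.89) in the newborn. CCL3 went the other way in the newborn at 0.276 (0.0961 to 0.709), on 7 and 16 UMIs.

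**Figure D4:**
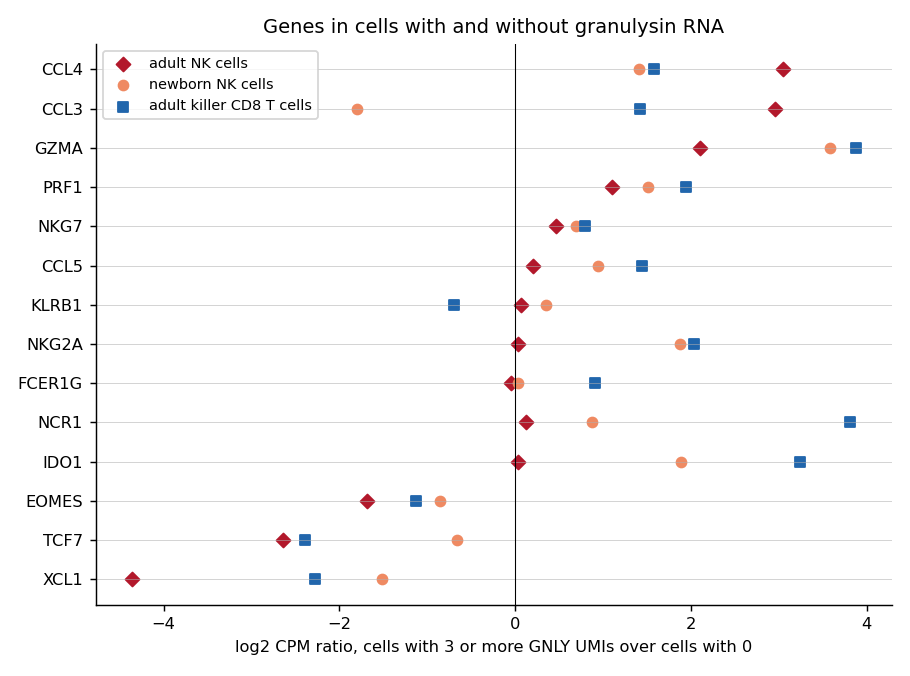
Log2 ratio of CPM in cells with 3 or more GNLY UMIs over cells with 0 for 14 genes in adult NK cells (diamonds), newborn cells under the NK gate (circles) and adult killer CD8 T cells (squares), with a prior count of 0.5 added. EOMES lies left of 0 and CCL4 and PRF1 right of 0 in all 3 sets. XCL1 and TCF7 lie left of 0 in adult NK and killer CD8 T cells (the newborn has 6 and 8 UMIs of them). CCL3 lies left of 0 in the newborn. NKG2A and IDO1 lie near 0 in adult NK cells only, as does NCR1, which is a gate gene of both NK sets.

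In the newborn library the same gate held 36 of 13726 barcodes with 300 or more genes, 0.262% (0.184 to 0.363), with a median of 5943 UMIs. Of these, 4 also met the fibroblast gate, in a library where 85.6% of barcodes met it. FCER1G stood at 902 CPM and CCL5 at 7074 CPM in them, and the gate genes NCR1 and GNLY, given as description, at 701 and 3249 CPM. Age, animal and library cannot be told apart, and newborn NK barcodes carried fibroblast RNA, with 4107 CPM of the fibroblast list against 25.2 CPM in the adult and COL1A1 at 938 CPM against 0 UMIs.

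The direction of most genes that set adult NK cells apart was the same in the newborn, where 17 killer CD8 T cells served for comparison. Of the 19 genes that were 4-fold higher within the depth limit, 17 had at least 10 newborn UMIs, and all 17 were higher in newborn NK than in newborn killer CD8 T cells, where 59.4% of 2111 genes were. IDO1 stood at 837 against 15.8 CPM, and DTNBP1 at 133 CPM against 0 UMIs. Of the 30 genes without the depth limit, 17 of 22 were higher, and of the 46 lower genes 14 of 17 were lower. The 26 lower genes within the limit gave 14 of 16, where 857 of all 2111 genes were lower.

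Several cell division genes stood higher in NK cells of the newborn gland. MKI67, a mark of dividing cells, stood at 238 CPM (181 to 306) against 61.8 CPM (40.7 to 90.0) in the adult, a ratio of 3.84 (2.40 to 6.30). The ratio was 8.21 (3.33 to 24.2) for TOP2A, 5.75 for UBE2C, 3.05 for STMN1, 3.18 (1.82 to 5.71) for CENPF, 2.02 for TUBB and 2.04 for HMGB2. PCNA, a clamp of DNA replication, was at 0.835 (0.552 to 1.24). At least 2 UMIs of MKI67 and TOP2A together were found in 6 of 36 newborn cells (16.7%, 6.37 to 32.8) and 2 of 104 adult cells (1.92%, 0.234 to 6.77), without thinning. Of the 27 adult UMIs of MKI67, 15 lay in 1 cell, as did all 6 of TOP2A, and 25 of the 36 newborn UMIs of UBE2C lay in 1 cell. MKI67 stood at 0.102 CPM in newborn fibroblasts. The adult NK cells stood at 61.8 CPM of MKI67 beside 67.9 CPM in adult killer CD8 T cells.

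Adult NK cells were higher in NKG2A, at 389 against 68.4 CPM (ratio 5.69, 3.45 to 9.99). Its partner KLRD1 stood at 165 against 44.3 CPM, a description only, since it is a gate gene and 16 adult cells but 0 newborn cells entered on it without NCR1. XCL1 stood at 151 against 24.2 CPM (6.26, 2.73 to 17.7), RGS1 at 753 against 302 CPM (2.49, 1.94 to 3.25), and S1PR1 at 131 against 32.2 CPM, most of the last from 1 adult cell. The newborn cells were higher in ZBTB16, a factor of innate-like lymphocytes, at 72.5 against 13.7 CPM, and in ID3 at 137 CPM against 7 UMIs in 5 adult cells (ratio 8.54, 3.73 to 22.8), beside 175 and 256 CPM of these genes in newborn fibroblasts. IFI6 at 1304 against 483 CPM and JUN at 1582 against 593 CPM were likewise below the 2464 and 6197 CPM of newborn fibroblasts, and the part of free RNA in these differences was not tested.

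**Figure D5:**
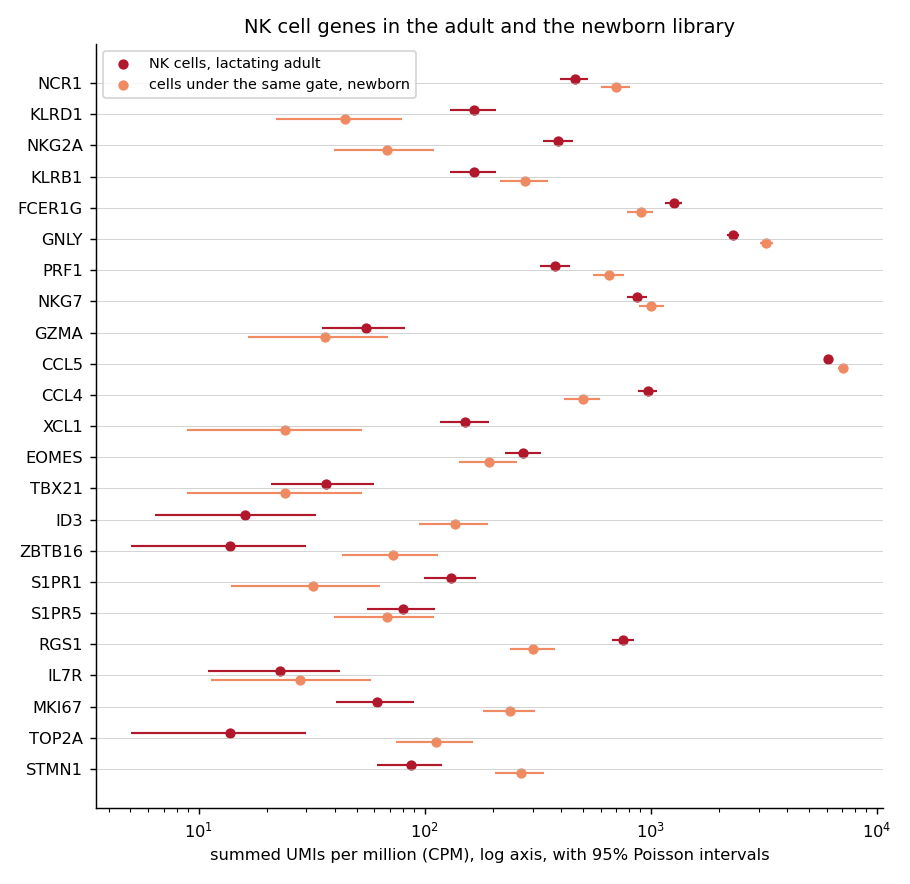
CPM (log axis, with 95% Poisson intervals) of 23 genes in the 104 adult NK cells and the 36 newborn cells under the same gate, where NCR1, KLRD1, GNLY, PRF1 and NKG7 are gate genes and so a description only. The intervals lie apart with the adult higher for 7 genes (KLRD1, NKG2A, FCER1G, CCL4, XCL1, S1PR1, RGS1) and with the newborn higher for 10 (NCR1, KLRB1, GNLY, PRF1, CCL5, ID3, ZBTB16, MKI67, TOP2A, STMN1), and they overlap for the other 6. The thinned shares of cells with XCL1 had the opposite order.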

How the data were processed

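The authors deposited a count matrix of raw UMIs for each library. Cell Ranger 3.1.0 is the tool that the submitters' processing notes name, with build, annotation and cell calling not given in the sources used here. No coordinates are printed. Of 27270 identifiers in each file, 19730 carry a symbol there. The members and the gene lists were chosen with earlier results of these data known. Classes were gated on raw UMIs, without normalization or clustering. A barcode that met the NK gate and another stayed in NK cells. UMIs were summed per class and scaled to CPM (Python 3.11.15, numpy 2.4.6, scipy 1.17.1). Genes were compared when the higher class held at least 50 CPM and 20 UMIs and the class passed a guard of 10% of the highest other class, and gate genes were left out of counts. Genes called were those at 4-fold or more. The rule for named genes took the gate genes, the 10 largest ratios with a symbol per direction (without mitochondrial, ribosomal, immunoglobulin and milk genes), and list members at 50 CPM and 20 UMIs or with a 4-fold difference, of which the text gives a part. CAMK2N1, CD38, DTNBP1, FGR, MCTP2, CD7 and the genes of the granulysin split were chosen after their values were seen. Ratios have exact conditional binomial intervals, levels exact Poisson and shares Clopper-Pearson intervals of 95%. List medians used a prior count of 0.5. Ratios and intervals were tested on simulated Poisson counts, without the guard. Such counts lack the pile-up of UMIs in single cells, so the intervals were not tested for it. Doublets were left in, and removing the 1778 highest Scrublet scores (scanpy 1.11.5), 6 of them NK cells, was an alternative.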

Additional observations from a re-analysis of the deposited data

How the results depend on the processing

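No paired analysis was possible because each age has 1 library. The NK share of 0.698% was 0.577% to 0.790% under 6 other settings, and 0.195% (29 cells) with both NCR1 and KLRD1 required. Against killer CD8 T cells, the counts of 30 higher and 46 lower genes became 19 and 26 within the depth limit, 17 and 95 with both receptors required, and 121 and 126 at 2-fold, and the lower count became 81 with NCR1 required and 16 with a guard of 50%. Against CD4 T cells, 52 higher and 62 lower became 25 and 138 with both receptors and 147 and 255 at 2-fold, and the lower count became 96 with NCR1 required and 21 with a guard of 50%. Against type 2 lymphoid cells, 143 higher became 55 with both receptors, and 327 higher and 317 lower were counted at 2-fold. Of 600 values of the 60 named ratios under other settings 556 stayed on their side of 4-fold, 34 fell below it and 10 turned. IL6 (log2) turned to -0.17 within the depth limit, -1.43 with both receptors and -2.10 without the deepest NK barcode, an alternative added after the data were seen. KRT17 turned to 0.20 and BDA20 to 0.72 within the depth limit, on 2 and 4 NK UMIs. SELP turned to -0.37 with both receptors and -2.85 without the deepest barcode, where PTGS2 stood at -1.10, ADAMTS4 at -0.80 and CSF3 at -0.92. That barcode holds nearly all NK UMIs of IL6 and SELP and all of PTGS2, ADAMTS4 and CSF3. Without it the last 3 had 0 NK UMIs, so a floor of 3 UMIs set their values. The same floor within the depth limit gave ratios of 1.23, 3.92 and 3.92, so no direction is read for them. The cause of the other changes was not tested. Genes under 20 UMIs could not be counted in so few cells.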
